A study of Mus musculus with 42 samples.

Results

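The EB HOXC6 sites without EB HOXC9 are genomic positions that HOXC6 occupied in embryoid bodies (EBs) and at which no HOXC9 binding event was listed in the same kind of EBs. The 10000 HOXC6 events with the most estimated ChIP reads on chromosomes 1 to 19 and X were taken, and an event was kept when the EB HOXC9 list held no event within 100 bp. This left 490 sites, and the other 9510 top events lay within 100 bp of an EB HOXC9 event. The whole EB HOXC6 list holds 44751 events and the EB HOXC9 list 128388, out of 1087512 events in all 21 lists of the series. The sites were chosen by measured values, namely their HOXC6 ChIP reads and their distance to HOXC9 events in the EB lists, so these values are descriptions only.

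Hox genes encode homeodomain transcription factors that give cells their position along the body axis. In the spinal cord, HOXC6 and HOXC8 are factors of the central group and mark brachial, limb-innervating levels, HOXC9 is a posterior factor that marks thoracic levels, and HOXC10 is a posterior factor of lumbar levels. Central factors favour the core TAAT and posterior factors the longer TTTAT, and both kinds can bind together with the cofactors PBX and MEIS, which carry their own homeodomains. Since the homeodomains are similar, different Hox factors often occupy the same sites.

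The series measured genomic binding by ChIP-seq in mouse embryonic stem cell lines that each carry 1 tagged Hox gene under doxycycline (Dox). For the EB groups, the lines Ainv15(iFlag.Hoxc6) and Ainv15(iFlag.Hoxc9) were grown as EBs and given Dox for 12 h, with 2 libraries each and the same Flag antibody. The later groups were EBs patterned with retinoic acid and a smoothened agonist from day 0 and given Dox from day 2. They were collected at day 3 after 24 h or at day 4 after 48 h, when the cells are becoming motor neurons. The full-length factors of day 3 were central (HOXC6 and HOXC8) or posterior (HOXC9, HOXA9, HOXD9, HOXC10 and HOXC13), all from Flag lines except 1 HOXC10 library (V5 line) and 1 library each of HOXA9, HOXD9 and HOXC13 (HA lines). Chimeras of HOXC10 and HOXC13 were also assayed at day 3, and HOXC6, HOXC9 and HOXC10 at day 4. MEIS was assayed at day 3 in V5-tagged iHoxc6, iHoxc9 and iHoxc10 lines, with 1 library each, while PBX was assayed in the iHoxc9 and the iHoxc10 line, each with 1 library at day 4. The labels also name 1 anti-Flag control at day 3, in the V5-tagged iHoxc10 line, and 1 input at day 4, from the iHoxc8 line. They name no control for the EB groups. All factors were driven by the same kind of transgene in a cultured line, so the lists show where an induced factor bound and not the endogenous gene product. The files hold no expression values, so the cell types were not checked against markers here.

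The 2 EB HOXC6 libraries held 14089278 and 19912332 reads, with 0.297 and 0.201 of the reads assigned to events. The 2 EB HOXC9 libraries held 32537455 and 30011523 reads, with 0.461 and 0.491. The EB HOXC9 list is thus the deeper and longer of the pair. The later lists differed widely in length. HOXC6 had 17900 events at day 3 and 69297 at day 4, HOXC9 had 74085 and 44024, and HOXC10 had 26873 and 22027. A share of sites found in a list depends on that list's length, so members were compared with the other 9510 top events against the same list. Each list pools its libraries, and the spread from one differentiation to another is unknown here. Intervals below are 95% intervals (Wilson for a share, Newcombe for a difference of 2 shares). Intervals within rank bins or with flanks subtracted combine Newcombe intervals. Intervals for HOXC6 set against HOXC9 or HOXC10 are normal intervals from the variance over sites. All cover counting error over sites only and treat sites as independent. A difference was called when its interval left out 0, and no p-value is given.

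The sequences around the strongest sites of 3 classes show what these positions hold. They hold the event base and 50 bases to each side on the plus strand of mm10, in lower case, with TAAT and its reverse complement in capitals. The EB-only class had no event of any full-length HOX factor at day 3 or day 4. Near Auts2, Tln2, Nmbr and Sfmbt2 the windows were chr5:131532034-131532134, chr9:67321996-67322096, chr10:15263377-15263477 and chr2:10334585-10334685.
Auts2 intron: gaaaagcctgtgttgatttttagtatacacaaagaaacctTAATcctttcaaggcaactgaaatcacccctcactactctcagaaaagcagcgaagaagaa
Tln2 intron: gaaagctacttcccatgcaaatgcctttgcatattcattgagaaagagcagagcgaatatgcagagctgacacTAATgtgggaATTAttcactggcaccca
Nmbr, intergenic: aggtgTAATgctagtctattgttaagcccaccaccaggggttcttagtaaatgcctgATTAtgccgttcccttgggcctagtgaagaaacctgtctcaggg
Sfmbt2, intergenic: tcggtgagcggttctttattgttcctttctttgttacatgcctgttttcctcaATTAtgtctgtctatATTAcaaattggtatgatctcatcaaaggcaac
Each of these 4 windows, the strongest of the class, held the core at 1 or 2 places, and the Sfmbt2 window also held TTTAT at 1. The fifth EB-only site, near Mmadhc, held TTTAT but no TAAT. The lasting class had HOXC6 events at day 3 and at day 4. Its strongest windows outside exons lay at chr12:100831759-100831859 in an intron of Dglucy, at chr14:80486424-80486524 in an intergenic stretch 486172 bp from Olfm4, and at chr5:112153749-112153849, which is 97363 bp from Cryba4.
Dglucy intron: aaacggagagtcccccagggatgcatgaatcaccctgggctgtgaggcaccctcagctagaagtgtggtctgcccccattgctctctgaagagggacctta
Olfm4, intergenic: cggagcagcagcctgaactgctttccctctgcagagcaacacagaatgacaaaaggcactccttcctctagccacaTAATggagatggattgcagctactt
Cryba4, intergenic: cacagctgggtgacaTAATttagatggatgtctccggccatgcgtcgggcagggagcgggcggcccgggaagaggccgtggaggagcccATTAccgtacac
The strongest site of all, at Dglucy, held neither TAAT nor TTTAT. The class with later HOXC9 had a HOXC9 event at day 3 or day 4, and besides the Dglucy and Cryba4 sites it was led by chr7:28962539-28962639, 249 bp upstream of an Actn4 start site, and chr13:92703687-92703787 in an intron of Serinc5, with Thbs4 as the nearest start site.
Actn4 promoter: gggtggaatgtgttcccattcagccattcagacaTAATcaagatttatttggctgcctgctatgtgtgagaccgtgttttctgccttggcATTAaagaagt
Thbs4 side, Serinc5 intron: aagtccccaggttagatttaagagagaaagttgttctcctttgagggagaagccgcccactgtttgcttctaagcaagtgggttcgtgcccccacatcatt
The Actn4 window held TAAT or its complement at 2 places and TTTAT at 1, and the Thbs4 window held neither word.

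The 490 sites were weak HOXC6 events for the top list. Their ChIP reads ran from 164 to 1777 with a median of 217, while the other top events had a median of 321 and reached 12373. Of the 1000 strongest HOXC6 events, 9 had no EB HOXC9 event (0.9%). Of the ranks from 9001 to 10000, 104 had none (10.4%), and the number rose in every step of 1000 ranks between them. The sites were spread over all 20 chromosomes, from 3.76% of the top events on chromosome 1 to 6.27% on chromosome X.

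The distance to the nearest EB HOXC9 event split the sites into a near and a far group. It was over 100 and up to 500 bp for 203 sites and over 500 bp for 287, with a median of 2078 bp and a maximum of 298748 bp. The other top events had a median distance of 16 bp. The limit of 100 bp cut through a tail of close pairs, since 44 sites lay within 110 bp and 54 of the other events at 91 to 100 bp. A site within 500 bp has HOXC9 nearby in the same region, so the far group is given beside the whole for some of the values.

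**Figure D1:**
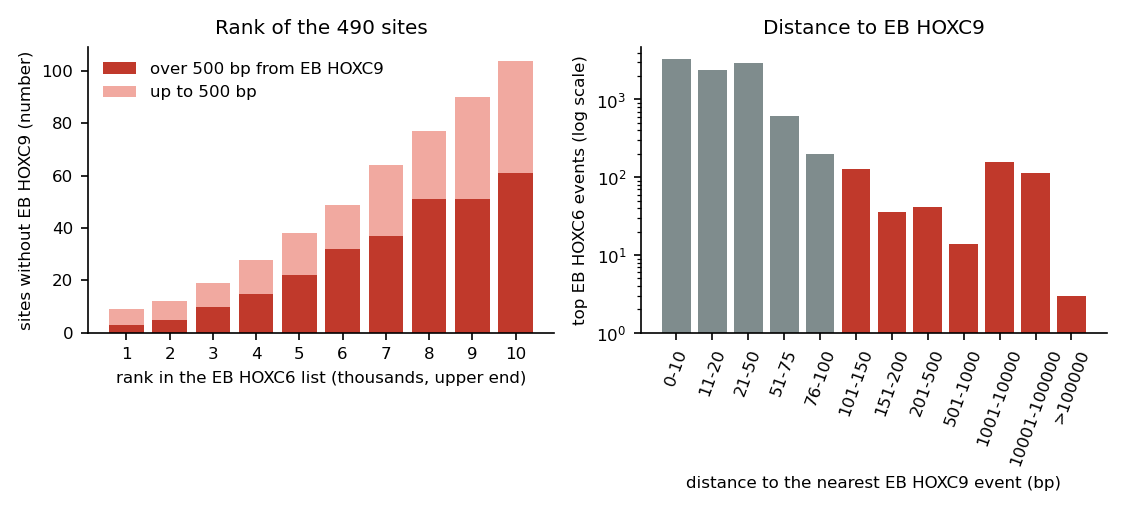
Number of EB HOXC6 sites without EB HOXC9 per 1000 ranks (left) and number of top EB HOXC6 events by distance to the nearest EB HOXC9 event on a log axis (right; red bars are the 490 sites). The count goes from 9 among the 1000 strongest events to 104 at ranks 9001 to 10000, and 203 of the sites lie within 500 bp.

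At the later stages no difference in HOXC6 between these sites and the other top events was called with the settings used here. At day 3, 53 sites had a HOXC6 event within 100 bp (10.8%, interval 8.36 to 13.9), against 12% of all top events and 12% of the other 9510. The difference was -1.20 percentage points (-3.74 to 1.92) and was not called. At day 4, 125 sites had one (25.5%, 21.9 to 29.6), against 25.2% of all top events and 25.2% of the others, a difference of 0.34 points (-3.43 to 4.47). The day 4 HOXC6 list is the longer, and HOXC6 was listed at either stage at 127 sites (25.9%, against 25.4% of all top events). Of these, 51 were found at both stages (10.4%, against 11.8% of all top events), 74 at day 4 only and 2 at day 3 only. Other settings called HOXC6 lower at the sites. With every EB HOXC6 event in place of the top 10000, the difference was -3.82 points (-4.29 to -3.33) at day 3 and -5.91 points (-6.66 to -5.15) at day 4. At a distance of 50 bp it was -2.46 points (-3.90 to -0.79) and -3.62 points (-5.73 to -1.35). With the EB HOXC9 list shortened to the length of the HOXC6 list it was -2.17 points (-3.63 to -0.59) at day 3 and -1.47 points (-3.55 to 0.68) at day 4. None of the 13 alternatives called HOXC6 higher at either day. Of the 125 sites at day 4, 2 were among the 1000 strongest events of that list and the median rank was 20631 of 69297, while 155 of 2394 of the others were among the 1000 strongest and their median rank was 18439.

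HOXC9 was listed less often at these sites than at the other top events at both later stages. At day 3, 49 sites had a HOXC9 event (10%, interval 7.65 to 13), against 20.7% of all top events and 21.3% of the others, a difference of -11.29 points (-13.79 to -8.21). At day 4, 37 sites had one (7.55%), against 16.7% of all top events and 17.2% of the others, a difference of -9.61 points (-11.78 to -6.82). Either stage gave a HOXC9 event at 59 sites (12%, against 22.8% of all top events), and both stages at 27 (5.51%, against 14.6%). The far group of 287 sites had 9.41% at day 3 and 7.32% at day 4. Compared within bins of 2000 HOXC6 ranks, the differences were -9.32 points (-11.58 to -5.92) and -7.78 points (-9.71 to -4.64). Among the 5000 strongest HOXC6 events, where 106 sites remained, the differences were -8.03 points (-13.94 to 0.20) and -6.59 points (-11.89 to 1.23) and were no longer called.

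The later shares of HOXC6, which held these sites in EBs, and of HOXC9, which was not listed there in EBs, were then set against each other. At day 3 the share with HOXC6 minus the share with HOXC9 was 0.816 points at the sites and -9.27 points at the others, which differed by 10.09 points (7.60 to 12.59). At day 4 it was 18 and 8.01 points, which differed by 9.95 points (6.42 to 13.47). Both contrasts were run with the main settings only, on later lists of unequal length. With the later lists shortened to their top 10000 events, HOXC6 differed from the others by -1.56 points at day 3 and -1.79 at day 4. HOXC9 then differed by -4.84 and -5.29 points. HOXC6 without HOXC9 at both later stages, that is a HOXC6 event at day 3 or day 4 and no HOXC9 event at either, was found at 72 sites (14.7%), against 7.38% of all top events and 7% of the others, a difference of 7.69 points (4.78 to 11.14). At day 4 alone, 89 sites had HOXC6 and no HOXC9 (18.2%, against 11% of all top events), a difference of 7.52 points (4.30 to 11.23). In the far group 48 of 287 sites (16.7%) had later HOXC6 without later HOXC9. Conversely, 4 sites had later HOXC9 without later HOXC6 (0.816%, against 4.78% of all top events), and all 4 were within 500 bp of an EB HOXC9 event. Of the 59 sites with later HOXC9, 55 had a later HOXC6 event (93.2%), against 1801 of 2279 of all top events with later HOXC9 (79%).

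Most sites were not listed for any full-length HOX factor again. None of the 10 lists of full-length factors at day 3 and day 4 held an event at 329 sites (67.1%, interval 62.9 to 71.2), against 64.4% of all top events, a difference from the others of 2.91 points (-1.48 to 7.03) that was not called. Of the 161 sites with a later event, 56 were in 1 list (11.4% of the sites, against 7.64% of the others) and 3 in all 10. The share in all 10 lists, 0.612%, compared with 3.12% of all top events and differed from the others by -2.64 points (-3.19 to -1.42).

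The other posterior factors were also listed less often at these sites. HOXC13 had an event at 18 sites (3.67%, against 12.5% of all top events), a difference of -9.25 points (-10.75 to -7.09). Its share was 2.44% in the far group and 5.42% in the near group. HOXA9 was at 82 sites (16.7%, against 22.5%), with a difference of -6.04 points (-9.20 to -2.38), and HOXD9 at 77 (15.7%, against 19.8%), with a difference of -4.26 points (-7.33 to -0.69). HOXC10 was at 43 sites at day 3 (8.78%, against 12.5%) and at 36 at day 4 (7.35%, against 10.4%), with differences of -3.87 points (-6.17 to -0.96) and -3.25 points (-5.34 to -0.53). Either day gave a HOXC10 event at 57 sites (11.6%, against 14.8%). The HOXC13 difference was called under all 13 alternatives tried. Within rank bins the intervals of HOXA9, HOXD9 and HOXC10 at both days included 0. The differences of HOXC6 and HOXC10 were not shown to differ from each other, at 2.67 points (-0.04 to 5.38) at day 3 and 3.59 points (-0.04 to 7.22) at day 4.

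HOXC8, the other central factor, was at 82 sites (16.7%, against 18.2% of all top events), a difference of -1.50 points (-4.64 to 2.14). The call for HOXC8 depended on the setting, and 6 of 13 alternatives called it lower and 1 higher. Of the 44 sites with at least 10 reads in the control library, 24 had HOXC8. Without events of 10 or more control reads the share was 13%, against 18.1% of the others, a difference of -5.08 points (-7.99 to -1.55). Over every event it was -6.72 points, at 50 bp -3.83, with the shortened EB HOXC9 list -3.78, ranked by q-value -3.54 and without events in exons -4.28, all called lower. Among the top 5000 events it was called higher, at 9.12 points (1.12 to 18.50).

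Chimeras that exchange the homeodomain and C-terminus between HOXC10 and HOXC13 were lower at these sites too. HOXC13:C10.1 had events at 66 sites (13.5%, against 24.7% of all top events) and HOXC13:C10.2 at 86 (17.6%, against 24.2%), with differences of -11.79 points (-14.67 to -8.37) and -7.02 points (-10.26 to -3.31). HOXC10:C13.1 had 5 (1.02%, against 3%) and HOXC10:C13.2 had 6 (1.22%, against 4.48%), with differences of -2.08 points (-2.77 to -0.70) and -3.42 points (-4.22 to -1.95). No alternative setting, such as rank bins, was run for the chimera lists.

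**Figure D2:**
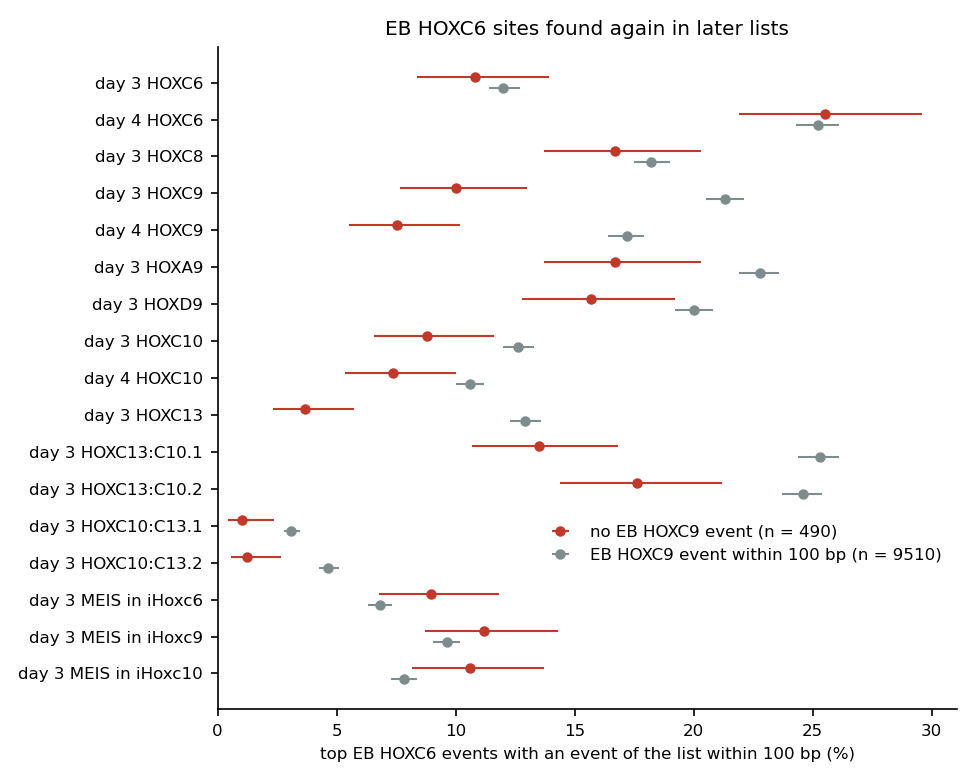
Share of top EB HOXC6 events with an event of each later list within 100 bp, for the 490 sites without EB HOXC9 (red) and the other 9510 top events (grey), with 95% Wilson intervals. HOXC9 is at 10% and 7.55% of the sites at day 3 and day 4 against 21.3% and 17.2% of the others, while HOXC6 at day 4 is at 25.5% and 25.2%.

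MEIS, a cofactor that binds DNA together with Hox and PBX, was at 8.98% to 11.2% of these sites. MEIS in iHoxc6 cells was at 44 sites (8.98%, against 6.92% of all top events), in iHoxc9 cells at 55 (11.2%, against 9.7%) and in iHoxc10 cells at 52 (10.6%, against 7.95%). The differences were 2.17 points (-0.12 to 5.07), 1.60 points (-0.97 to 4.76) and 2.80 points (0.31 to 5.88), and only the last was called. The calls changed with the setting. MEIS in iHoxc10 cells was called under 5 of 13 alternatives and lost under 8, among them the far group at 1.59 points (-1.32 to 5.56), chained sites counted once at 2.42 points (-0.07 to 5.54) and no events of 10 or more control reads at 0.60 points (-1.68 to 3.58). MEIS in iHoxc6 cells was called higher under 4 of 13, namely within rank bins at 3.11 points (1.14 to 6.28), in the top 5000 at 10.04 points (3.85 to 18.45), at a log2 q-value below -20 at 2.90 points and with the shortened EB HOXC9 list at 2.13 points. MEIS in iHoxc9 cells was called higher under 3, within rank bins at 2.42 points (0.12 to 5.85), in the top 5000 at 7.30 points (1.10 to 15.72) and at a log2 q-value below -20 at 2.06 points, and lower over every event at -1.49 points (-2.01 to -0.97). Of the 72 sites with any MEIS event, 68 also had a later HOX event (94.4%, against 97.1% of all top events with MEIS), and 60 had later HOXC6 (83.3%, against 87.2%). PBX had few events in all, with 1165 in iHoxc9 and 848 in iHoxc10 cells. PBX in iHoxc9 cells had none at the 490 sites (0.05% of all top events), which allows a share of up to 0.612%. In iHoxc10 cells it had 2 (0.408%, against 0.02%), too few to describe.

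A minority of sites carried many reads in the control library. At least 10 control reads were estimated at 44 sites (8.98%, against 1.19% of all top events and 0.789% of the others). These 44 had a median of 17.3 control reads and a median G+C content of 58.4%, against 1.3 reads and 46.5% at the other 446 sites. They made up 11 of the 20 sites with the most ChIP reads. Of the 44, 33 were over 500 bp from an EB HOXC9 event (287 of all 490 sites). Exons held 16 of the 44 (29 of all 490), and 17 lay within 1 kb of a protein-coding transcription start site, or TSS (27 of all 490). A day 3 HOXC8 event was at 24 (82 of all 490) and a day 4 HOXC6 event at 21 (125 of all 490). Any later full-length HOX event was at 34 of the 44, against 161 of all 490 (32.9%). The part of the control signal in these calls was not tested.

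**Figure D3:**
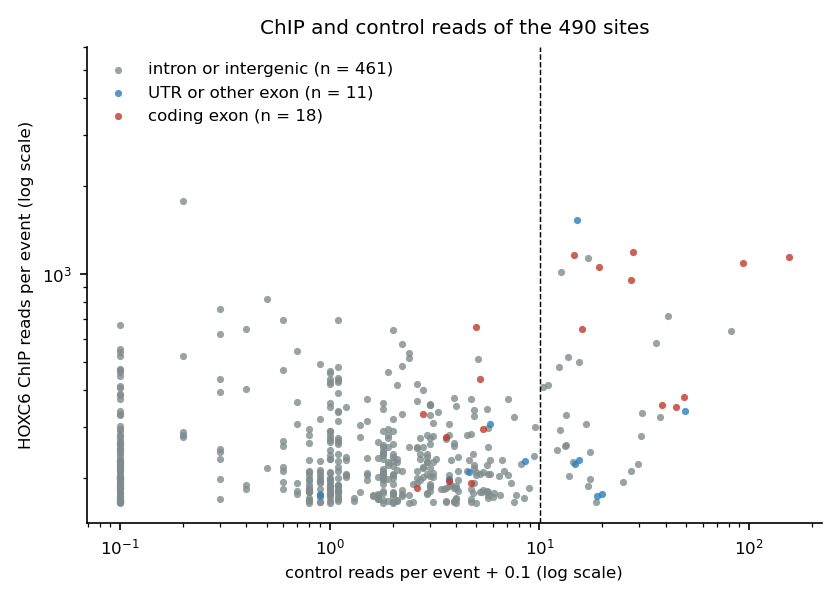
Estimated HOXC6 ChIP reads against estimated control reads (plus 0.1) of each of the 490 sites on log axes, coloured by annotation; the dashed line marks 10 control reads. The 44 sites to its right include 16 of the 29 in exons.

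Coding exons held more of these sites than of the others. Coding exons held 18 sites (3.67%, against 0.65% of all top events), a difference of 3.18 points (1.83 to 5.24), and exons of any kind held 29 (5.92%, against 1.95%), a difference of 4.17 points (2.38 to 6.64). Of the 18, 5 lay in a coding exon of Foxa2, a forkhead factor of floor plate and endoderm, between 148043879 and 148044767 on chromosome 2. Their ChIP reads ran from 436.6 to 1186.2 and their control reads from 5.1 to 28.0. Lmx1b, a LIM homeodomain factor, held 2 in a coding exon, with 295.2 and 379.7 ChIP reads. All 7 of these had a day 3 HOXC8 event, and none had HOXC6 at day 4. At Foxa2 an EB HOXC9 event lay 117 to 446 bp away and at Lmx1b 2048 to 2500 bp away. Without events of 10 or more control reads, exons held 2.91% of the sites and 1.71% of the others, and the difference of 1.21 points (-0.03 to 3.23) was not called.

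Promoters gave a like pattern. Within 1 kb of a protein-coding TSS lay 27 sites (5.51%, interval 3.81 to 7.9), against 3.14% of all top events, 3.02% of the others and 2.43% of the bases of these chromosomes. The difference of 2.49 points (0.76 to 4.90) was called. The promoter share was 7.32% in the far group and 2.96% in the near group. Of the 27, 17 had at least 10 control reads. Without such events the share was 2.24%, against 2.85% of the others, and the difference was -0.61 points (-1.69 to 1.25), so the direction turned. Ranking by q-value gave 0.41 points (-0.87 to 2.42). The promoter of Pgk1, which encodes a glycolytic enzyme, alone held 3 sites with 305.7 to 1134.9 ChIP reads and 5.7 to 17.0 control reads. Otx1, a homeodomain factor of the forebrain, had the second strongest site of all in its UTR, 39 bp downstream of a TSS, with 1533.3 ChIP and 15.0 control reads, HOXC6 events at both later days and MEIS events in all 3 lines.

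Away from promoters and exons, differences were called only for the distance class of 10 to 100 kb and for repeats. Introns held 190 sites (38.8%, against 41.1% of all top events) and intergenic DNA 271 (55.3%, against 57%), and neither difference was called. The nearest protein-coding TSS was over 100 kb away at 169 sites (34.5%, against 34.7%), a difference of -0.22 points (-4.41 to 4.20). It was 10 to 100 kb away at 203 (41.4%, against 45.8%), a difference of -4.60 points (-8.99 to -0.07), and 1 to 10 kb away at 91 (18.6%, against 16.4%). The share over 100 kb was 30% in the far group and 40.9% in the near group. The median distance was 43524 bp for the sites and 51066 bp for the others. A soft-masked repeat held the event base at 84 sites (17.1%, against 13.4%), a difference of 3.90 points (0.75 to 7.55).

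The Hox words were rarer around these sites. Words were searched on both strands within 50 bp of the event. TAAT was found at 263 sites (53.7%, interval 49.2 to 58), against 61.1% of all top events, a difference from the others of -7.79 points (-12.32 to -3.31). TTTAT was found at 98 (20%, against 26.8%), a difference of -7.18 points (-10.61 to -3.31), and TTTAC, the word of HOXC13, at 76 (15.5%, against 20.7%), a difference of -5.46 points (-8.51 to -1.89). None of the 3 words was present at 159 sites (32.4%, against 22.9%), a difference of 10.02 points (5.94 to 14.37). Both TAAT and TTTAT were present at 52 (10.6%, against 16.6%). In the whole EB HOXC6 list of 44678 events on these chromosomes TAAT was at 58.3% and TTTAT at 26.7%. Windows of the same length 1 kb to each side held TAAT at 47.2% around the sites and 50% around the others, and TTTAT at 27.8% and 32.1%. With those flank shares subtracted the differences were -5.01 points (-10.56 to 0.49) and -2.80 points (-7.34 to 1.95), so neither was called. These 2 intervals treat the centre and flank windows as independent, although they belong to the same sites, so they are approximate.

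The MEIS word was more frequent. TGACAG, the word that MEIS binds, was found at 74 sites (15.1%, interval 12.2 to 18.5), against 9.48% of all top events, 9.19% of the others and 9.89% of the whole list, a difference of 5.91 points (2.95 to 9.40). The flanking windows held it at 7.86% around the sites and 6.6% around the others. The difference was 5.76 points (3.00 to 9.52) within rank bins, 7.19 points (3.31 to 11.94) for the far group and 6.31 points (3.20 to 10.01) without events of 10 or more control reads, and among the top 5000 events it was 3.29 points (-1.73 to 10.93). The joint words of PBX with Hox, TGATTTAT, TGATTGAT and TGATTAAT, were found at 16 (3.27%, against 2.58%), 13 (2.65%, against 1.97%) and 3 sites (0.612%, against 0.94%), with no difference called. TGATTAAT contains TAAT and TGATTTAT contains TTTAT. All 13 sites with TGATTGAT were in the far group.

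Words of other factor families also differed. The SOX core ACAAT was at 127 sites (25.9%, against 31.5% of all top events) and ACAAAG, shared by SOX and TCF factors, at 79 (16.1%, against 21.4%), with differences of -5.83 points (-9.63 to -1.67) and -5.52 points (-8.62 to -1.91). The octamer ATGCAAAT of POU factors such as OCT4, which the Tln2 window above contains, was at 13 sites (2.65%, against 3.68%), and the E-box CACGTG at 4 (0.816%, against 0.54%). Neither differed. The GC box GGGCGG was at 24 sites (4.9%, against 1.79%), a difference of 3.27 points (1.66 to 5.57). Windows with a G+C content of at least 60% made up 27 sites (5.51%, against 1.32%), a difference of 4.41 points (2.69 to 6.80) that shrank to 0.33 points (-0.43 to 1.90) without events of 10 or more control reads. A word in a window is a match of letters and does not show that a factor bound it.

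**Figure D4:**
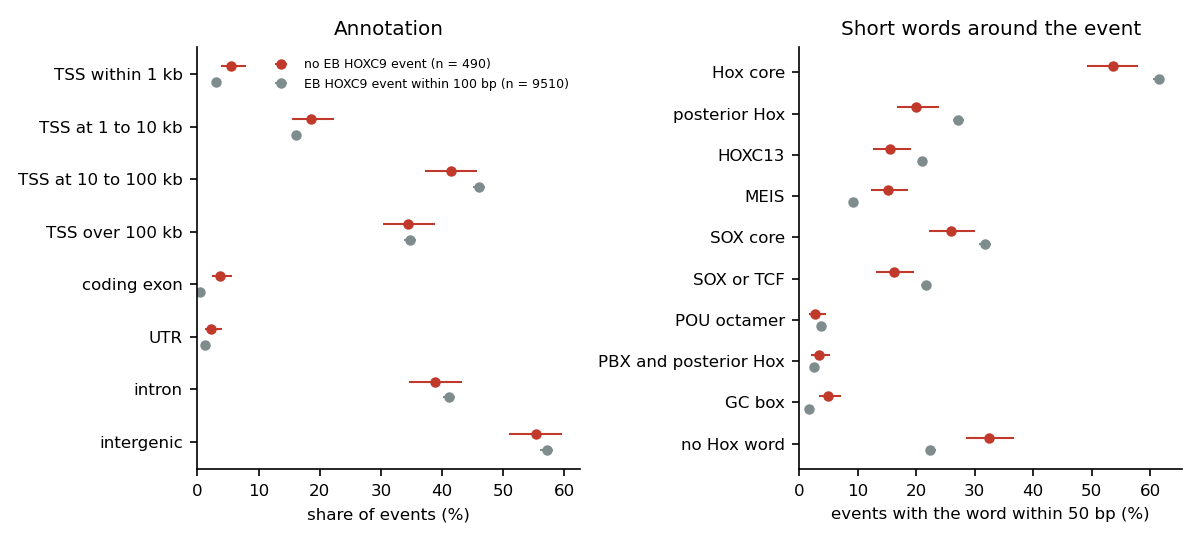
Share of the 490 sites (red) and of the other 9510 top EB HOXC6 events (grey) in each annotation class (left) and with each short word within 50 bp (right), with 95% Wilson intervals. The MEIS word is at 15.1% of the sites against 9.19% of the others, and the Hox core at 53.7% against 61.5%.

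Among the 490 sites, those with TGACAG were found later more often, a comparison chosen after the values were seen. Of the 74 with the word, 31 had a day 4 HOXC6 event (41.9%), against 94 of 416 without it (22.6%), a difference of 19.30 points (7.90 to 31.27). Any MEIS list held 29.7% and 12% of them, a difference of 17.71 points (7.87 to 29.25), and HOXC9 was listed later at 24.3% and 9.86%, a difference of 14.47 points (5.51 to 25.64). The other top events had the same order, with day 4 HOXC6 at 33.8% of those with the word and 24.3% of those without it.

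The 20 sites with the most ChIP reads lay nearest to 13 genes. The strongest was at Dglucy, which encodes a D-glutamate cyclase. It had 1777.3 ChIP reads, 0.1 control reads, an EB HOXC9 event 108 bp away, and an event in 9 of the 10 later full-length lists, all but HOXC13. The Olfm4 site had 823.4 ChIP reads and an EB HOXC9 event 3941 bp away, and of the full-length lists only HOXC6 at both days held it. A second site lay 40 bp from it. The Actn4 promoter site, near a gene for an actin-binding protein, had 717.2 ChIP and 40.9 control reads. It had day 4 HOXC6, and HOXC8, HOXC9, HOXA9 and HOXD9 at day 3. Thbs4, a thrombospondin gene, was nearest to a site of 647.3 ChIP reads with HOXC9 at both later days but no later HOXC6. The next site, at rank 1927 near the lens crystallin gene Cryba4, had 640.9 ChIP and 82.2 control reads and HOXC6 at both later days.

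The 5 strongest EB-only sites had few control reads, between 0.0 and 1.9. They lay nearest to Auts2 (758.6 ChIP reads), Tln2 (696.8), which encodes a talin that links integrins to actin, Nmbr (695.8), a neuropeptide receptor gene, Sfmbt2 (667.4), a Polycomb group gene, and Mmadhc (641.2), a gene of cobalamin metabolism. An EB HOXC9 event lay 102, 106, 110 and 130 bp from the Auts2, Nmbr, Sfmbt2 and Mmadhc sites, and 2814 bp from the Tln2 site. Of these 5, the Tln2 site was thus in the far group.

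The 490 sites were nearest to 437 protein-coding genes, of which 401 had 1 site and 36 had 2 or more. Foxa2 had 5 sites, and no gene had more. Pgk1, Olfm4, Hes1, Glra1, Samd9l, Vmn1r2, Pard3 and Prdm2 had 3 each and led the genes with 3 sites by summed reads. Chaining sites within 1 kb gave 469 loci, of which 13 held more than 1 site. The Vmn1r2 locus, at a vomeronasal receptor gene, held 3 EB-only sites of 171.5 to 372.3 ChIP reads that were 9478 to 10175 bp from EB HOXC9. A pair near the odorant receptor gene Olfr1507 lay farthest from HOXC9 of all sites, at 298677 and 298748 bp, with 294.5 and 413.2 ChIP reads, no control reads and no later HOX event.

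Genes of the developmental lists were seldom nearest. Of the neural progenitor list (26 genes), 13 sites were nearest to a member (2.65%, against 0.84% of all top events). These 13 sites were nearest to only 3 genes, while 17 genes of the list had a top event. Close events of 1 locus were counted as separate sites, so the share is not one of separate loci. The 13 include the 5 Foxa2 exon sites, which lie within 889 bp. They also include 3 sites near Hes1, a Notch target and repressor, 109482 to 187670 bp from its TSS. The strongest Hes1 site had 623.6 ChIP reads, and none of the 3 had a later HOX event. An EB HOXC9 event lay 120, 263 and 341 bp from these Hes1 sites. Of the motor neuron list (24 genes), 3 sites were nearest to a member (0.612%, against 0.38%). Mnx1, a motor neuron homeodomain gene, had an EB-only site in a coding exon with 193.0 reads, and Stmn2, which encodes a neuronal microtubule regulator, had an EB-only site with 276.7 reads. Foxp1, a cofactor of Hox proteins in limb-innervating motor neurons, had an intronic site with 372.2 reads, day 3 HOXC9, HOXC10 at both days and MEIS in all 3 lines. The nearest EB HOXC9 event was 122 bp from the Foxp1 site, 131 bp from the Stmn2 site and 1524 bp from the Mnx1 site.

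The pluripotency list (32 genes) had 3 sites (0.612%, against 0.75%). Sall4, a zinc finger factor of stem cells, had a UTR site 78 bp from its TSS with 340.5 ChIP and 49.4 control reads, an event in all 10 later full-length lists and MEIS in all 3 lines. Klf2 (227.8 reads, 2769 bp upstream of its TSS) and Sox2 (233.0 reads, 118300 bp away) had EB-only sites. An EB HOXC9 event lay 104 bp from the Sox2 site, 2415 bp from the Sall4 site and 5044 bp from the Klf2 site. Of the Hox genes (39), Hoxd1 was nearest to 1 site (0.204%, against 0.19%), EB-only with 167.3 reads and 108 bp from EB HOXC9. The Wnt and caudal list (22 genes) had 1 site near Lef1 (0.204%, against 0.37%) and the Nodal and BMP list (17 genes) had 1 near Eomes (0.204%, against 0.23%), both EB-only. The Lef1 site was 9669 bp and the Eomes site 118 bp from EB HOXC9. No site was nearest to a gene of the Hox cofactor list or of the endoderm and other lineages list, which had 34 and 11 of all top events. Foxa2, also a factor of endoderm, was counted in the neural progenitor list instead. These counts are descriptions, and nearness does not show that a gene is regulated from the site.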

How the data were processed

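Mouse ChIP-seq event lists of 21 groups from 42 samples were used, with groups taken from the labels. Per the study's methods and the submitters' notes, reads were aligned to mm10 with Bowtie 1.0.1, and MultiGPS called events per condition on pooled replicates against a control library. The authors deposited, per event, estimated counts of reads in the ChIP and in the control, how far the ChIP exceeded the control as a log2 value, and a q-value on the log2 scale. The deposited position tracks carry a score and held the same positions as all 21 lists. Columns of the authors' own comparisons between conditions (log2 fold changes and q-values) were not used.

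Events on chromosomes 1 to 19 and X were ranked by estimated ChIP read count, and events of different lists within 100 bp of each other were counted as the same site. Events of the EB HOXC6 list itself were not merged. All 44678 deposited sequences of the EB HOXC6 list were found within 100 bp of their event on GRCm38 (the mm10 assembly). Genes, exons and TSSs are those of GENCODE mouse release 21, and sequences are from the RefSeq copy of GRCm38. Differences of 2 shares have 95% Newcombe intervals. Single shares have Wilson intervals, and differences between 2 factors have normal intervals. Intervals within rank bins or with flanks subtracted combine Newcombe intervals. The upper limit for a count of 0 is 3 counts of the total. Code in Python 3.11.15 with numpy 2.4.6 was tested on simulated data. Named were the nearest genes of the 20 sites with most ChIP reads, the 10 genes with most sites, listed genes with a site, and the 5 strongest sites of each class. 1 gene that this rule names is not reported here. The sites, gene lists, words and tests were chosen with earlier results of these data known.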

Additional observations from a re-analysis of the deposited data

Results flagged for a closer look

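At the EB HOXC6 sites without EB HOXC9, the shares of sites with a later event, each taken relative to the other top events, differed between HOXC6 and HOXC9. The difference between both factors was 10.09 percentage points at day 3 (interval 7.60 to 12.59) and 9.95 points at day 4 (6.42 to 13.47). It was tested over sites of pooled lists, so it has no replicate check, and it was run with the main settings only. With the later lists shortened to their top 10000 events, the HOXC9 differences were -4.84 points at day 3 and -5.29 at day 4. Those of HOXC6 were -1.56 and -1.79 points, so the 2 factors lay closer together than with the full lists.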

How the results depend on the processing

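The number of sites was 490. It was 106 of the top 5000 events, 12622 over every EB HOXC6 event, 1302 at a distance of 50 bp, 313 at 250 bp, 1958 with the EB HOXC9 list shortened to the length of the EB HOXC6 list, and 287 over 500 bp from HOXC9. The day 3 and day 4 HOXC9 differences kept their direction under all 13 alternatives, and were not called only in the top 5000 (-8.03 and -6.59 points). Also in the top 5000, the differences were 2.31 points for day 3 HOXC6, 1.75 and 2.73 for day 3 and day 4 HOXC10, 9.12 for HOXC8 and 0.33 for HOXD9, all with the opposite sign, and -9.29 for TAAT and -5.52 for TTTAT, no longer called. Over every event, day 3 HOXC6 was at -3.82, day 4 HOXC6 at -5.91, MEIS in iHoxc6 at -0.11 and MEIS in iHoxc9 at -1.49. At 50 bp, day 3 HOXC6 was at -2.46, day 4 HOXC6 at -3.62 and MEIS in iHoxc9 at -0.07. With the shortened EB HOXC9 list, day 3 HOXC6 was at -2.17, day 4 HOXC6 at -1.47 and promoters at 0.80. Ranking by q-value gave day 4 HOXC6 -0.85 and promoters 0.41. Within rank bins, day 3 HOXC6 was at 0.82, HOXC8 at 0.78, and day 3 and day 4 HOXC10 at -2.74 and -1.94. A log2 q-value below -20 in the other lists gave day 3 HOXC10 -2.07. With the later lists shortened to 10000 events, day 4 HOXC6 was at -1.79 and HOXC8 at 0.14. With flanks subtracted, TAAT was at -5.01 and TTTAT at -2.80, and the spellings TAATTA and TTAT gave -1.95 and -4.28. Alternatives chosen after seeing the data gave, without events of 10 or more control reads, -1.69 for day 4 HOXC6, -0.61 for promoters and -0.99 for MEIS in iHoxc9. They gave 0.37 for promoters without events in exons, and 0.18 for day 3 HOXC6 and -3.28 for day 4 HOXC10 in the far group. The cause of these changes was not tested.

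No paired analysis was possible because each list pools its replicates. Leaving out a replicate was not run for the same reason. The lists differ in depth and length, and an event missing from a list was not called there, which does not show that the factor was absent.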

Other observations

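Of the loci with more than 1 site, a pair lay near the vomeronasal receptor gene Vmn1r3 with 172.9 and 173.8 ChIP reads, 323 and 520 bp from an EB HOXC9 event, and neither had a later HOX event. Other loci of more than 1 site had later HOXC6. The pairs near Usp25, a deubiquitinase gene (318.0 and 483.1 ChIP reads), near Glra1, a glycine receptor gene (280.7 and 372.3), near Prdm2 (191.7 and 269.0) and near Wscd1 (167.2 and 177.2) had a day 4 HOXC6 event at both sites, and all 8 lay within 200 bp of an EB HOXC9 event. These loci were chosen after their values were seen.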
